A study of Mus musculus with 6 samples.

Results

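Amino acid transporters of 6 gene families (Slc1, Slc3, Slc6, Slc7, Slc36 and Slc38) were followed in the renal cortex of diabetic mice with and without the complement receptor C3aR. Members were taken by name, from the gene symbol printed for each probe, and 2 genes of these families were left out. The rule gave 57 genes on 103 probes, of 37323 gene names on the array. RNA came from renal cortex of male C57BL/6 mice, 3 samples of wild-type (WT) diabetic and 3 of C3aR-/- diabetic mice, on 6 1-colour arrays. In both groups a diet with 60% of its calories from fat began at 8 weeks of age, streptozotocin (STZ, a toxin of pancreatic beta cells) followed after 4 weeks at 60 mg/kg on 3 days, and tissue was taken 26 weeks after STZ. The design also names non-diabetic groups, which were not analysed here, so values compare the genotypes within diabetes. The labels do not say whether a sample is 1 mouse or several. The p-values therefore weigh a difference against the spread between these samples, which need not be that between mice.

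Proximal tubule cells recover nearly all filtered amino acids. Transporters in the luminal brush border carry them in, mostly with sodium or protons, and exchangers in the basolateral membrane pass them to the blood. Slc3 proteins are heavy chains that bring Slc7 light chains to the membrane, while Slc6 and Slc1 members also clear neurotransmitters in the nervous system, and several Slc7, Slc1 and Slc38 genes are induced through the transcription factor ATF4 when amino acids run short.

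Some members are read through probes whose sequence is not theirs alone. A run of 16 bases on either strand was shared with probes of at least 5 other gene names by 4 of the 103 member probes, and by 1.671% of the 56605 probes on the array. The 30-base windows below are shown because the signal of such a probe may not come from the named gene alone, and capitals mark the bases inside shared runs.
Slc38a9: tctctGTGAGTTCCAGGACAGCCAAagcta
Slc1a4: tgtatcaaGTGTGTGTGTGTATGTGTGTGC
Slc3a2: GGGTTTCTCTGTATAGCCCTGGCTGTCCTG
Slc7a13: aaatggttaaaATTTTTTGTTGTTGTTTTT
Over its 60 bases, the Slc3a2 probe shared such a run with probes of 26 other gene names, the Slc1a4 probe with 16, the Slc38a9 probe with 12 and the Slc7a13 probe with 9. For Slc38a9 and Slc1a4 this probe gave the value reported, while Slc3a2 and Slc7a13 were read from another probe.

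Promoter windows of RefSeq (GRCm38.p6, 250 bases before to 50 after the start) were found for 41 of the 57 members, in 59 windows. The 8 letters TTGCATCA, the composite element that ATF4 and C/EBP factors bind, were searched on both strands and shown because 9 members belong to a list of ATF4-responsive transporters. They occurred in 0.895% of all 32851 windows and in 4 of the members' windows, which belong to Slc1a4, Slc7a11 and Slc7a7. The matches are in capitals, each in 30 bases read 5′ to 3′ on the gene's strand, which is the minus strand for all 3 genes.
Slc1a4: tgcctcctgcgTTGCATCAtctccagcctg
Slc7a11 (first match): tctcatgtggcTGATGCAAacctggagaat
Slc7a11 (second match): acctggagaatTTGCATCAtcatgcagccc
Slc7a7: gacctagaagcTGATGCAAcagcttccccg
The Slc1a4 match lies at chr11:20332710-20332717 and the Slc7a7 match at chr14:54417938-54417945, where it falls into 2 overlapping windows of that gene. Those of Slc7a11 lie at chr3:50443672-50443679 and chr3:50443653-50443660. A match is only the presence of these letters. Motifs of the transcription factors HNF4A (CAAAGTCCA) and HNF1 (GTTAAT) were searched in the same windows, and their matches are not printed. They occurred in 1 (1.69%) and 7 (11.9%) of the 59 member windows, beside 0.475% and 7.1% of all windows.

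Levels are log2 of the background-subtracted probe signal minus the 75th percentile of the same array, so 0 is that percentile and levels of different probes are not comparable. Differences are C3aR-/- minus WT on the log2 scale with the standard error (SE) of limma, and replicates are written WT 1 to 3 and C3aR-/- 1 to 3. The deleted gene C3ar1 was at -2.96, -3.86 and -3.62 in WT and at -4.10, -4.95 and -4.69 in C3aR-/-, a difference of -1.10 ± 0.30 (SE, n = 3 per group, limma adjusted p = 0.931), and all 3 C3aR-/- arrays lay below the WT arrays. Its probe was well above background on all 3 WT arrays and on 2 C3aR-/- arrays, and the part of the gene that was deleted is not given in the labels. Between 58.6 and 63.0% of probes were well above background per array, and arrays correlated at 0.981 to 0.995. The first principal component (43.1% of the variance) had WT 1 at one end (50.5) and C3aR-/- 2 at the other (-43.1). All 19 proximal tubule markers were well above background on every array, as were the 5 podocyte and 7 collecting duct markers, while 2 of the 4 adrenal markers (Cyp11a1 and Cyp11b1) and 2 of the 4 adipocyte markers (Adipoq and Plin1) did not pass the filter.

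Of the 57 members, 42 passed the filter, which asked for a probe well above background on at least 3 of the 6 arrays. Over all gene names 60.9% passed. Both Slc3 genes passed, as did 12 of 15 Slc7, 9 of 10 Slc38, 5 of 7 Slc1, 3 of 4 Slc36 and 11 of 19 Slc6 genes. The 8 Slc6 genes below background included the transporters of GABA (Slc6a11), noradrenaline (Slc6a2), dopamine (Slc6a3), glycine in neurons (Slc6a5), proline in brain (Slc6a7) and betaine (Slc6a12), and Slc6a14, a broad transporter of neutral and cationic amino acids. The other 7 were the glutamate transporters Slc1a6 and Slc1a7, the cationic transporter Slc7a2, the cystine-glutamate exchanger Slc7a11, Slc7a15, Slc36a3 and the glutamine transporter Slc38a5. Of these 15 genes, 9 were well above background on no array. Among the 42 that passed, 40 were well above background on all 6 arrays, and the exceptions were Slc6a16 (1 WT and 3 C3aR-/- arrays) and Slc7a10 (2 WT arrays and 1 C3aR-/- array).

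**Figure D1:**
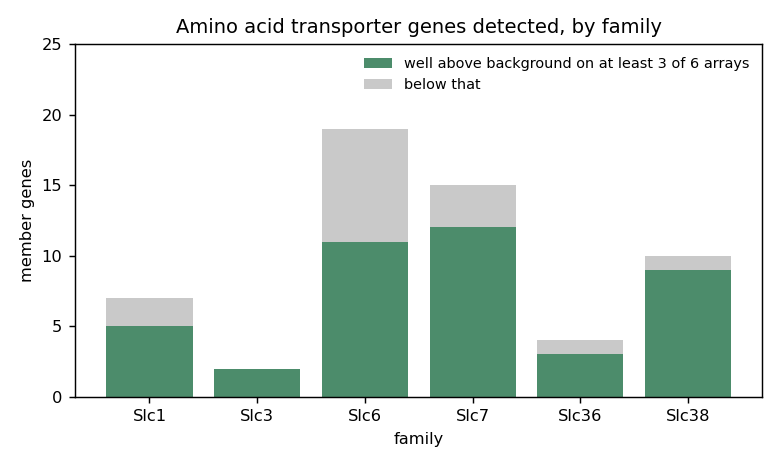
Number of member genes (y axis) in each of the 6 families (x axis), split into those with a probe well above background on at least 3 of 6 arrays (green) and those without (grey). The grey part is largest in Slc6, with 8 of 19 genes, and both Slc3 genes are in green.

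No member passed the test for a difference between genotypes, and the lowest limma adjusted p among them was 0.931. Over all 22740 genes 0 passed in limma at an adjusted p under 0.05 (0% called, lowest limma adjusted p = 0.858), while 1111 genes (4.89%) had an unadjusted p under 0.05, 2.21% higher and 2.68% lower in C3aR-/-. Among the members 3 of 42 had such an unadjusted p, Slc6a16 higher and Slc7a10 and Slc38a10 lower in C3aR-/-. The same 3 were the members whose groups did not overlap, beside 9.84% of all genes without overlap (5.66% higher and 4.19% lower in C3aR-/-). Slc6a16 met the filter through its C3aR-/- arrays, the group where it was higher, so its place in this count is no support for a difference. Without WT 1 or without WT 3 the count of 3 fell to 0. Without WT 1, 1111 of all 22740 genes still had an unadjusted p under 0.05. In direction, 25 members were higher and 17 lower in C3aR-/-, beside 56.6% higher and 43.4% lower over all genes, and the median difference was 0.068 beside 0.026. Without WT 1 the members divided into 21 higher and 21 lower, with a median of -0.00083. Differences ran from -0.83 (Slc7a12) to 0.75 (Slc6a19), so none reached a 2-fold change, and for 29 of the 42 the 95% interval also lay within a 2-fold change either way. By family the median difference was -0.01 for Slc1, 0.12 for Slc3, 0.14 for Slc6, 0.04 for Slc7, -0.00 for Slc36 and 0.04 for Slc38.

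**Figure D2:**
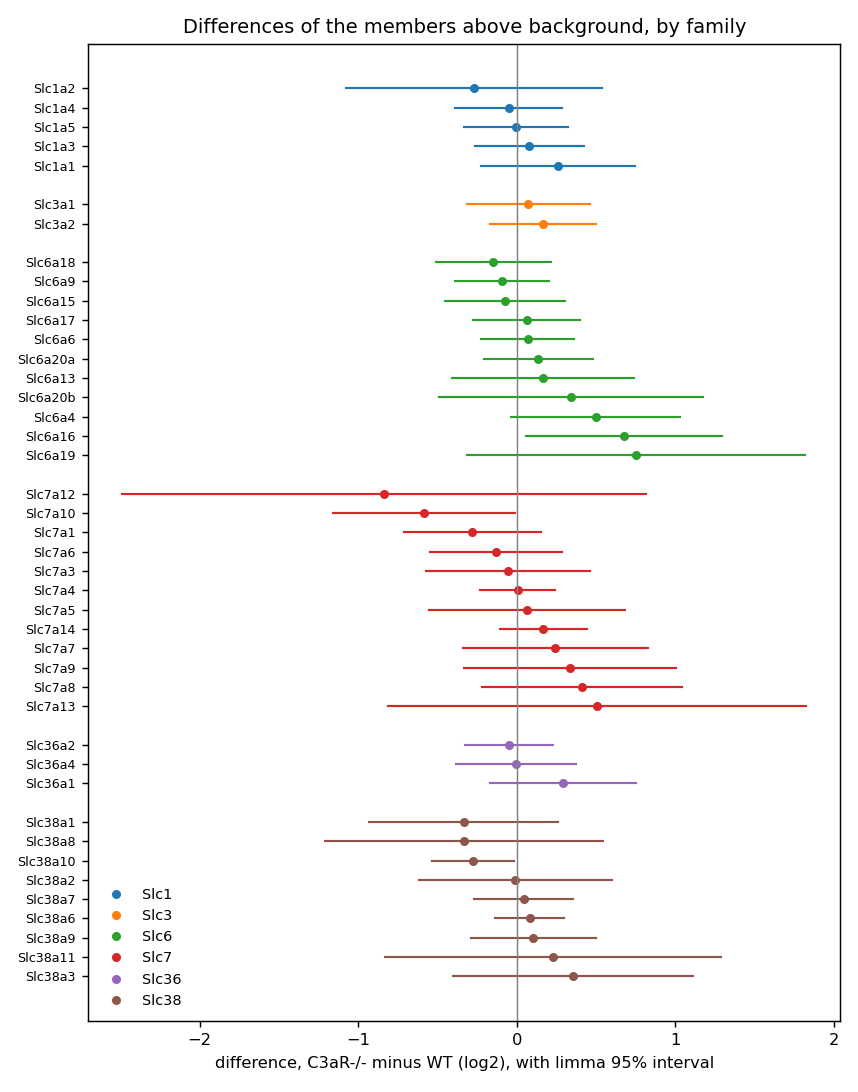
Difference between genotypes (x axis, C3aR-/- minus WT, log2) for the 42 members above background, by family and sorted within it, with the limma 95% interval as a bar. The interval excludes 0 for 3 genes, Slc6a16 to the right and Slc7a10 and Slc38a10 to the left, and is widest for Slc7a12.

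The luminal uptake list held 10 members, all above background, of which 8 were higher in C3aR-/- with a median difference of 0.27. None had an unadjusted p under 0.05 and none had groups that did not overlap. The direction rested on 1 array: 7 of the 10 were lowest in WT 1, and without WT 1 the list had 5 higher and 5 lower members and a median of -0.0039. Weights estimated per array gave a median of 0.03. WT 1 and C3aR-/- 3 lay in another row of the slide than the other 4 arrays, and the list's median was 0.51 within that row and 0.0065 within the other.

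Slc6a19, the sodium-coupled carrier of neutral amino acids known as B0AT1, was at -0.28, 1.11 and 0.09 in WT and at 1.17, 1.61 and 0.39 in C3aR-/-. Only WT 2 reached into the C3aR-/- range, and the difference was 0.75 ± 0.44 (SE, n = 3 per group, limma adjusted p = 0.931). Its partner Cltrn (collectrin), a membrane protein that brings it to the brush border and is no member of these families, was at 6.57, 7.28 and 7.13 in WT and at 7.19, 7.58 and 7.14 in C3aR-/-, with a difference of 0.31 ± 0.22. Slc6a18, which carries glycine and other neutral amino acids and also needs such a partner, was at 3.58, 3.44 and 3.57 in WT and at 3.37, 3.13 and 3.65 in C3aR-/-. It differed by -0.15 ± 0.15, with the lowest value in C3aR-/- 2 and the highest in C3aR-/- 3.

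Slc3a1, the heavy chain of the cystine and cationic amino acid transporter, was at 4.19, 4.74 and 4.53 in WT and at 4.49, 4.69 and 4.50 in C3aR-/-, a difference of 0.07 ± 0.16. Its light chain Slc7a9 was at 3.04, 4.05 and 3.30 in WT and at 3.66, 4.07 and 3.64 in C3aR-/-, a difference of 0.33 ± 0.28. Both were lowest in WT 1, and in both WT 2 was close to the highest C3aR-/- array. Slc7a13, the light chain that pairs with Slc3a1 in the last segment of the proximal tubule, was at 0.82, 2.85 and 2.84 in WT and at 2.74, 2.47 and 2.83 in C3aR-/-. The other 5 arrays lay between 2.47 and 2.85, and the difference of 0.51 ± 0.55 was -0.17 without WT 1.

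Slc1a1, the high-affinity carrier of glutamate and aspartate, was at 3.18, 3.91 and 3.62 in WT and at 3.82, 3.99 and 3.68 in C3aR-/-, a difference of 0.26 ± 0.20. Slc6a20a, the proline transporter, was at -1.09, -0.74 and -1.11 in WT and at -0.77, -1.004 and -0.76 in C3aR-/-, a difference of 0.14 ± 0.14. Its duplicate Slc6a20b was at 1.49, 2.77 and 2.68 in WT and at 2.56, 2.83 and 2.57 in C3aR-/-, a difference of 0.34 ± 0.35 that was -0.07 without WT 1. In Slc1a1 and Slc6a20b WT 1 was the lowest array. In Slc6a20b both other WT arrays lay among the C3aR-/- arrays, and in Slc1a1 WT 2 did while WT 3 lay just below them. Slc36a1, a proton-coupled carrier of small amino acids that also sits in lysosomes, was at 0.38, 1.01 and 0.86 in WT and at 0.97, 1.25 and 0.91 in C3aR-/-, a difference of 0.29 ± 0.19. Its other probe above background, farther upstream in the gene, differed by -0.04. Slc36a2, a proton-coupled carrier of proline and glycine, was at -3.34, -3.37 and -3.09 in WT and at -3.24, -3.39 and -3.32 in C3aR-/-, a difference of -0.05 ± 0.11. That probe is annotated with an Ensembl transcript, and the probe of its RefSeq transcript was well above background on 2 arrays only.

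The basolateral list held 5 members, all above background, of which 4 were higher in C3aR-/- with a median difference of 0.24 and none with an unadjusted p under 0.05. Of the 5, 4 were highest in C3aR-/- 2 and 3 lowest in WT 1. The median was 0.12 with 5 higher without WT 1, 0.07 without C3aR-/- 2, and 0.01 with 3 higher and 2 lower without both. With weights estimated per array it was 0.05. Within the slide row of WT 1 and C3aR-/- 3 it was 0.30 and within the other row 0.21, with 4 of the 5 higher in each.

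Slc3a2, the heavy chain 4F2hc of the basolateral exchangers, was at 4.80, 5.11 and 4.74 in WT and at 5.04, 5.19 and 4.91 in C3aR-/-, a difference of 0.16 ± 0.14. Its 3 probes above background differed by 0.16 to 0.19, and 1 of them (0.17) is the probe that shares a run of bases with probes of 26 other gene names. The light chain Slc7a7, which exports cationic amino acids in exchange for neutral ones and sodium, was at 4.61, 5.27 and 4.71 in WT and at 4.91, 5.51 and 4.91 in C3aR-/-, a difference of 0.24 ± 0.24. In both genes WT 2 lay above 2 of the 3 C3aR-/- arrays. Slc7a8, the exchanger of neutral amino acids called LAT2, was at 2.24, 3.01 and 2.58 in WT and at 2.89, 3.45 and 2.72 in C3aR-/-, a difference of 0.41 ± 0.26, with 0.65 by its other probe. Slc7a6, the light chain related to Slc7a7, was at -0.87, -1.42 and -1.33 in WT and at -1.28, -1.50 and -1.23 in C3aR-/-, a difference of -0.13 ± 0.17. It was the 1 gene of the list that was highest in WT 1. Slc38a3, the basolateral glutamine carrier SNAT3 that supplies ammonia production, was at 0.44, 1.11 and 1.18 in WT and at 1.17, 1.83 and 0.80 in C3aR-/-, a difference of 0.35 ± 0.31.

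**Figure D3:**
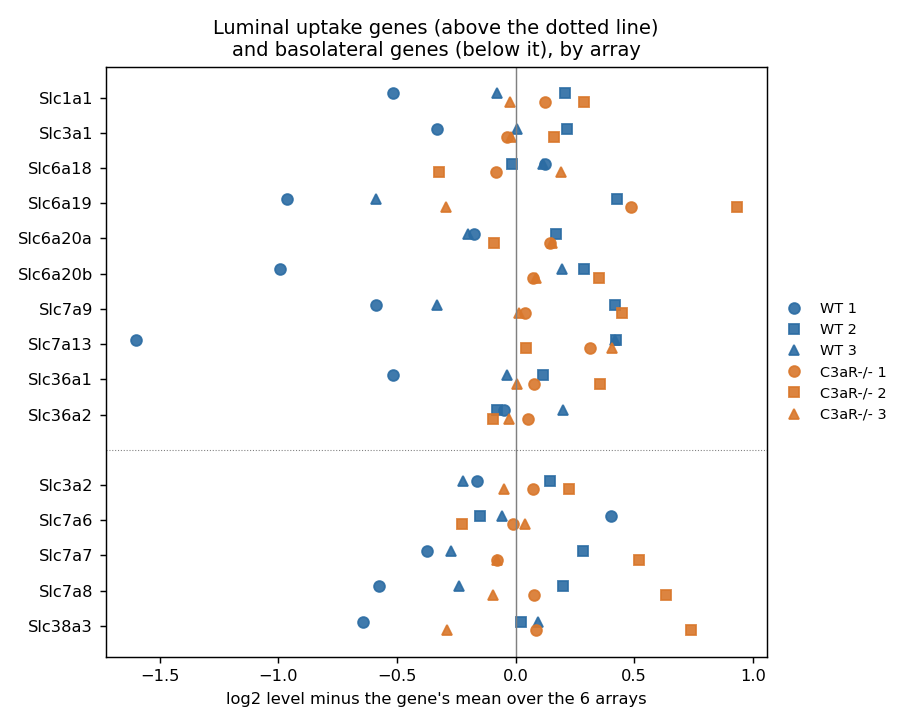
Level of each luminal (above the dotted line) and basolateral (below it) gene on each array, as the log2 level minus that gene's mean over the 6 arrays (x axis), with WT in blue, C3aR-/- in orange and a symbol per replicate. WT 1 (blue circles) is the lowest point in 10 of the 15 genes, and the 2 genotypes overlap in all 15.

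Proximal tubule markers moved with these members across arrays. The mean of the luminal list, each gene centred on its own mean, was -0.56, 0.22 and -0.03 in WT and 0.12, 0.21 and 0.05 in C3aR-/-, and that of the basolateral list -0.27, 0.10 and -0.14 in WT and 0.03, 0.38 and -0.09 in C3aR-/-. The 19 proximal tubule markers, such as the endocytic receptor Lrp2 and the phosphate carrier Slc34a1, had a mean of -0.92, 0.27 and 0.03 in WT and of 0.10, 0.63 and -0.11 in C3aR-/-. All 19 were lowest in WT 1 and highest in C3aR-/- 2, all 19 were higher in C3aR-/- with a median of 0.34, and none had an unadjusted p under 0.05. Without WT 1 the median was 0.05 with 13 higher, and without both end arrays -0.13 with 3 higher. In that last fit 3 of the 19 had an unadjusted p under 0.05, beside 2026 of all 22740 genes. Within slide row 1, which does not hold WT 1, the median was 0.24 with 17 higher. The low WT 1 was not particular to the proximal tubule. All 4 distal convoluted tubule markers were higher in C3aR-/- (median 0.33) and lowest in WT 1. Of these, 3 were highest in C3aR-/- 2. Of 5 thick ascending limb markers 4 were higher in C3aR-/- and 4 lowest in WT 1. All 7 collecting duct markers were higher in C3aR-/-, but only 1 was lowest in WT 1. In whole cortex, fewer cells of a type and less RNA per cell cannot be told apart. The part of these markers in the members' values was not tested.

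Injured tubule markers, such as Havcr1 (KIM-1, which appears on damaged proximal tubule cells), ran the other way. All 9 were highest in WT 1 and lower in C3aR-/-, with a median difference of -0.70 and means of 0.89, -0.07 and 0.12 in WT and -0.34, -0.58 and -0.01 in C3aR-/-. Without WT 1 the median was -0.33, without C3aR-/- 2 it was -0.41, and without both it was -0.18 with 2 higher and 7 lower. Of the 14 leukocyte markers 12 were lower in C3aR-/-, with a median of -0.62. An unadjusted p under 0.05 was reached by 8, beside 4.89% of all genes, and an adjusted one by none. The other 2 markers were higher, by 0.09 and 0.24, and 1 of these had groups that did not overlap. The means of the list were 0.42, -0.00 and 0.49 in WT and -0.16, -0.59 and -0.16 in C3aR-/-. Without WT 1 or without C3aR-/- 2, 12 of the 14 leukocyte markers were lower, with medians of -0.47 and -0.44 and 5 at an unadjusted p under 0.05 in each case. Of all 22740 genes, 1111 and 1058 had one in these fits. Over all members, 45.2% were lowest in WT 1 and 31% highest in C3aR-/- 2, beside 29.6% and 25.8% of all genes tested. The part of these marker lists was not tested either.

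**Figure D4:**
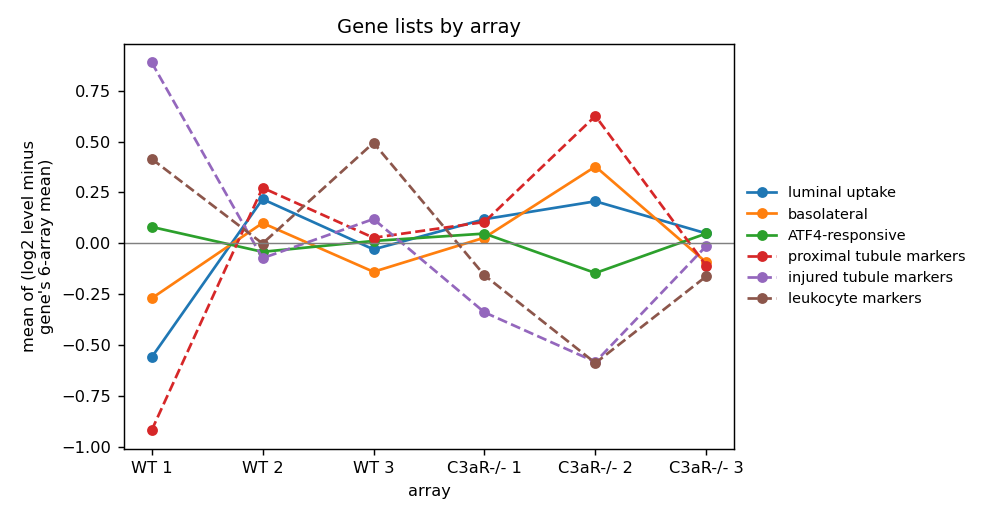
Mean over the genes of a list of the log2 level minus the gene's own 6-array mean (y axis) on each array (x axis), for 3 transporter lists (solid) and 3 marker lists (dashed). The luminal list and the proximal tubule markers are both lowest in WT 1, at -0.56 and -0.92, while the injured tubule markers are highest there, at 0.89.

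The enzymes that use amino acids in the tubule showed the same arrays at the ends. Of 17 such genes, all measured, 16 were higher in C3aR-/- with a median difference of 0.24, 13 were lowest in WT 1, and none had an unadjusted p under 0.05. Prodh2, which oxidises hydroxyproline, was at 1.41, 2.64 and 2.39 in WT and at 2.75, 3.09 and 2.38 in C3aR-/-, a difference of 0.59 ± 0.35. This was the largest positive difference of the list. The largest in either direction was that of Bcat1, the 1 lower gene, at -0.79 ± 0.43. Without WT 1 the list had 10 higher and 7 lower members and a median of 0.07, without C3aR-/- 2 the median was 0.12, and without both end arrays it had 5 higher and 12 lower members and a median of -0.06. The partners of the transporters outside these families were 3 higher and 3 lower of 6 measured, with a median of 0.02. Without WT 1 they were 2 higher and 4 lower with a median of -0.11, and without both end arrays 1 higher and 5 lower with a median of -0.14.

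The list of transporters known to respond to ATF4 had 9 members, of which 8 passed the filter and Slc7a11 did not. In C3aR-/- 2 were higher and 6 lower, with a median of -0.03, and none had an unadjusted p under 0.05. The list was at 0.08, -0.04 and 0.01 in WT and at 0.05, -0.15 and 0.05 in C3aR-/-, so it lacked the low WT 1 of the luminal list. Without C3aR-/- 2 the median was 0.09 with 5 higher and 3 lower. Slc7a1, the cationic transporter CAT1, was at 2.78, 2.15 and 2.31 in WT and at 2.17, 2.001 and 2.23 in C3aR-/-, a difference of -0.28 ± 0.18, and was highest in WT 1. The neutral exchangers Slc1a4, Slc1a5 and Slc7a5 differed by -0.05 ± 0.14, -0.01 ± 0.14 and 0.07 ± 0.26, the glycine carrier Slc6a9 by -0.09 ± 0.12, the cationic carrier Slc7a3 by -0.05 ± 0.21 and the starvation-induced glutamine and alanine carrier Slc38a2 by -0.01 ± 0.25. For Slc7a11 the best probe was well above background on 1 array, and no fold is given. Slc1a4 and Slc7a7, whose promoter windows like that of Slc7a11 hold the letters printed above, differed by -0.05 and 0.24. Slc7a7 is not in the ATF4-responsive list, and binding of ATF4 was not measured.

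Of 12 ATF4 pathway genes that are no transporters, 6 were higher and 6 lower, with a median of -0.06, and none had an unadjusted p under 0.05. Atf4 itself was at 6.35, 6.27 and 6.13 in WT and at 6.54, 6.31 and 6.53 in C3aR-/-, a difference of 0.21 ± 0.12. Its target Asns, which makes asparagine, was at 2.97, 2.07 and 2.31 in WT and at 2.17, 1.71 and 2.47 in C3aR-/-, a difference of -0.34 ± 0.29. Of these 12 genes 8 were highest in WT 1 and 7 lowest in C3aR-/- 2. Without both arrays 11 of the 12 were higher in C3aR-/-, with a median of 0.11 and 4 at an unadjusted p under 0.05, where 2026 of all 22740 genes had one.

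The largest negative difference was that of Slc7a12, a light chain of small neutral amino acids (Asc-2) whose heavy chain is not known. It was at -0.17, -1.59 and -0.98 in WT and at -1.43, -3.18 and -0.63 in C3aR-/-, a difference of -0.83 ± 0.69. C3aR-/- 2 was lowest and WT 1 highest, and the difference was 0.25 without both. Slc38a10, a little characterised relative of the glutamine carriers, was at 2.12, 2.18 and 2.07 in WT and at 1.90, 1.94 and 1.69 in C3aR-/-. The groups did not overlap, and the difference was -0.28 ± 0.11 (limma unadjusted p = 0.039, adjusted p = 0.931). That probe lies at chr11:119966184-119966243 (mm9). Another probe of Slc38a10 at chr11:119989740-119989799, annotated with another RefSeq transcript, differed by 0.09 ± 0.17, and the mean of both by -0.09.

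Both other members with an unadjusted p under 0.05 were near background. Slc7a10, the carrier Asc-1 of small neutral amino acids including D-serine, was at -5.01, -5.02 and -4.92 in WT and at -5.29, -6.13 and -5.30 in C3aR-/-, a difference of -0.59 ± 0.24 (limma unadjusted p = 0.046) with 3 arrays well above background. With another background correction (normexp) it was 0.01. Slc6a16, an orphan member of its family, was at -5.36, -4.86 and -5.04 in WT and at -4.73, -3.88 and -4.61 in C3aR-/-, a difference of 0.68 ± 0.26 (limma unadjusted p = 0.036) with 1 WT and 3 C3aR-/- arrays well above background. With normexp it was 0.29. Its 3 C3aR-/- arrays alone met the filter. The p-values of both genes come from all 6 arrays, including those not well above background.

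Slc6a4, the serotonin transporter, was at -2.39, -1.89 and -1.99 in WT and at -1.68, -1.90 and -1.20 in C3aR-/-, a difference of 0.50 ± 0.22 (limma unadjusted p = 0.062). C3aR-/- 2 lay within the WT range, and the other probe of the gene differed by 0.60. Of 15 members known from neurotransmitter uptake 7 passed the filter, with 3 higher, 4 lower and a median of -0.07. Without C3aR-/- 2 they were 4 higher and 3 lower with a median of 0.04, and without both end arrays 6 higher and 1 lower with a median of 0.11. The 7 included the glutamate carriers Slc1a2 (-0.27 ± 0.33) and Slc1a3 (0.08 ± 0.14) and the neutral carriers Slc6a15 (-0.07 ± 0.16) and Slc6a17 (0.06 ± 0.14). Slc38a1, a glutamine carrier, was at 0.49, -0.26 and 0.06 in WT and at -0.34, -0.52 and 0.15 in C3aR-/-, a difference of -0.34 ± 0.25, and its 3 probes above background differed by -0.39 to -0.28. Slc38a8, another glutamine carrier, was at -3.23, -3.54 and -2.09 in WT and at -3.15, -3.34 and -3.37 in C3aR-/-. Its difference of -0.33 ± 0.36 rested on WT 3, without which it was 0.10.

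Of the carriers of osmolytes and GABA, Slc6a6 (taurine) differed by 0.07 ± 0.12 and Slc6a13 (GABA and taurine) by 0.16 ± 0.24, and both were lowest in WT 1. All 4 lysosomal members were measured. Slc38a9, a lysosomal arginine sensor upstream of mTORC1, was at 4.28, 4.54 and 4.78 in WT and at 4.55, 4.53 and 4.83 in C3aR-/-, a difference of 0.10 ± 0.16. This was by the probe that shares a run of bases with probes of 12 other gene names. The Slc38a9 probe without such a run differed by 0.06 ± 0.11, and its 6 arrays lay between 0.36 and 0.57. Slc36a4 and Slc38a7 differed by -0.00 ± 0.16 and 0.04 ± 0.13. The remaining members above background, Slc7a4, Slc7a14, Slc38a6 and Slc38a11, differed by 0.01 ± 0.10, 0.17 ± 0.11, 0.08 ± 0.09 and 0.23 ± 0.44.

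More than 1 probe above background was present for 18 members, and in 4 of them (Slc36a1, Slc38a2, Slc38a6 and Slc38a10) probes differed in direction. Among the other 14, the widest spread was that of Slc6a17, with 0.06 by the probe used and 0.62 by the other. For Slc38a10 the direction of 1 of the 3 members with an unadjusted p under 0.05 thus depended on the probe.

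**Figure D5:**
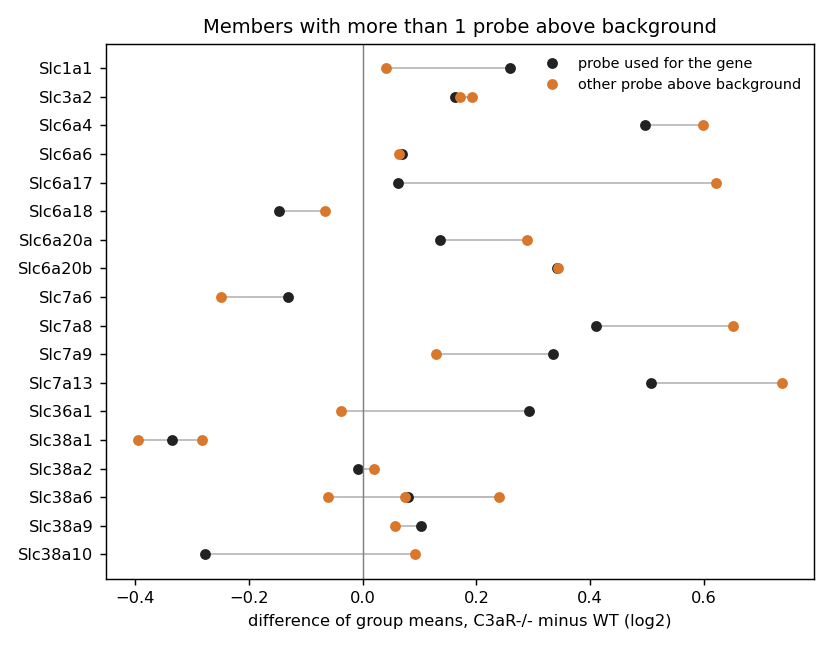
Difference of group means (x axis, C3aR-/- minus WT, log2) for every probe above background of the 18 members with more than 1, with the probe used for the gene in black and others in orange. Lines join probes of a gene, and 4 genes have probes on both sides of 0, the widest apart being Slc38a10 at -0.28 and 0.09.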

How the data were processed

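Per the file headers, the deposited intensity values came from Agilent Feature Extraction 10.7.1.1, which subtracted background and spatial trends from each of 62976 spots, without normalization between arrays. The deposited log2 table of the authors gave each array nearly the same distribution (median 5.73) and followed the scanner values of its own array (r of at least 0.999), and it was used as an alternative. The steps behind it are stated in neither the labels nor the file headers. All 6 arrays shared 1 slide and 1 scan, and their number limits the precision.

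Spots flagged as outliers were left out, which kept 56599 of 56605 probes, and no kept probe was saturated. Symbols were taken through RefSeq accessions (GRCm38.p6) for 32992 probes, and 23607 kept the name in the file, while probe coordinates are those of the file (mm9). Probe annotation by exon or UTR was not used here. Log2 processed signals were scaled by the 75th percentile of each array, probes well above background on at least 3 arrays were kept, and the probe with the highest mean stood for a gene. limma 3.58.1 (R 4.3.3) was fitted over all 22740 genes with Benjamini-Hochberg adjustment, after it was tested on simulated data. Intervals are at 95%.

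Some genes are counted in the lists but not reported by name here. Members and lists were chosen with earlier results of these data known. Named with values on every array were the luminal and basolateral members, the 5 largest differences in each direction, those with an unadjusted p under 0.05 and the 3 with the highest mean signal. Other genes given with values, such as Cltrn, Prodh2, Atf4 and Asns, were chosen after their values were seen. Scaling, background correction (normexp, offset 50), filter, probe rule, variance model, array weights, blocks and left-out arrays were varied.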

Additional observations from a re-analysis of the deposited data

How the results depend on the processing

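With 3 arrays per group, limma passed 0 genes at an adjusted p under 0.05 in all 19 alternative fits, and the lowest adjusted p of any named member in them was 0.473. Of 24 named members, 9 kept their direction in all fits that held them and 15 reversed in at least 1. None reversed under quantile or median scaling or in the authors' table. The count of 3 members with an unadjusted p under 0.05 was 1 with normexp, 1 without a filter and 1 with a filter on all arrays. In these fits 4.44, 3.27 and 4.67% of all genes had such a p. The count was also 1 with trend and robust variances and 1 with array weights, beside 4.22 and 9.31% of all genes. With the replicate number as a block it was 5 (Slc6a19 and Slc7a8 added). That was 11.9% of the members beside 7.02% of all genes. Same-numbered arrays deviated from their group means with correlations of 0.13, 0.41 and -0.09. With 3 arrays per group these values cannot settle whether the numbers pair the samples, and the labels do not say. With the slide row as a block the count was 4, with Slc38a1 and Slc6a19 added and Slc7a10 lost. The share of all genes in that fit is not given here. Leaving out 1 array at a time gave counts from 0 to 3. The causes were not tested.

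Leaving out 1 array at a time moved the median difference of all members from -0.00083 to 0.096, of the luminal list from -0.0039 to 0.42 and of the ATF4-responsive list from -0.092 to 0.093. That of the basolateral list ran from 0.074 to 0.44. Without WT 1 and C3aR-/- 2 together the luminal median was -0.017. The median of all members was -0.025 within slide row 1 and 0.15 within slide row 2. Members that reversed when 1 array was left out had ranges of -0.099 to 0.038 (Slc36a2), -0.63 to 0.098 (Slc38a8), -0.026 to 0.23 (Slc38a9), -0.075 to 0.20 (Slc3a1), -0.071 to 0.57 (Slc6a20b), -0.17 to 0.84 (Slc7a13) and -0.24 to 0.038 (Slc7a6). Without both end arrays the reversed values were -0.017 (Slc1a1), 0.0028 (Slc38a1), -0.16 (Slc38a3), -0.14 (Slc3a1), 0.0024 (Slc6a18), -0.16 (Slc6a20b), 0.25 (Slc7a12), -0.062 (Slc7a13), 0.12 (Slc7a6), -0.084 (Slc7a7) and -0.017 (Slc7a9). Array weights reversed Slc36a2 (0.0034), Slc3a1 (-0.11), Slc6a20b (-0.020), Slc7a6 (0.043), Slc7a7 (-0.061) and Slc7a9 (-0.012), and normexp reversed Slc36a2 (0.024) and Slc7a10 (0.012).

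Leaving out the probes that share a 16-base run, chosen after seeing the data, took Slc1a4 out of the test and left 41 members, with a median of 0.066. Neither Slc6a16 nor Slc7a10 was tested under the filter on all arrays, and their absence alone took the count of 3 members to 1 there. Signal near background limits Slc6a16 and Slc7a10, and the 15 members below the filter give no comparison.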

Other observations

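Single arrays stood apart for some second probes of members. The second probe of Slc6a17, the carrier of neutral amino acids in synaptic vesicles, was at -4.37, -4.38 and -4.32 in WT and at -4.20 and -4.13 in C3aR-/- 1 and 3, but at -2.89 in C3aR-/- 2. The RefSeq probe of Slc7a10 was well above background on 1 array only, and it was at -3.43 in C3aR-/- 2 and between -7.67 and -5.82 on the other 5. The second probe of Slc7a13 was at -6.94 in WT 1 and between -4.62 and -3.48 on the other 5. Its low array was the same as by the probe used. This second probe shares a run of bases with probes of 9 other gene names and was well above background on 5 arrays. Its signal therefore cannot be assigned to Slc7a13 alone. The second probes given here were picked after their values were seen.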
